A study of Arabidopsis thaliana with 36 samples.

Results

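The Aux/IAA repressors and the PIN auxin carriers of Arabidopsis thaliana were followed across seedlings under stress of the endoplasmic reticulum (ER). The set was defined by family membership and was chosen with earlier results of these data known. It holds 37 loci, 29 Aux/IAA and 8 PIN genes, out of 37336 loci in the count files. Enough counts for a test were found for 16 of the 37, namely 13 Aux/IAA and 3 PIN genes, of which 15 are described singly. Messenger RNA was sequenced from the 3′ end in whole 12-day-old seedlings after 6 h in water holding a chemical or its solvent DMSO (mock). Wild type (WT) received tunicamycin (Tm, 5 µg/ml), which blocks N-glycosylation, dithiothreitol (DTT, 2 mM), which reduces disulfide bonds, AZC at 5 mM (L-azetidine-2-carboxylic acid, built into proteins in place of proline), or mock. Tm or mock was given to 4 double mutants, s1p/s2p, bzip17/60, bzip28/60 and bzip17/28, each 1 line whose alleles the labels do not name. This makes 12 groups of 3 libraries.

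Aux/IAA proteins bind the AUXIN RESPONSE FACTORS (ARFs) and keep the genes those factors activate silent. Auxin glues an Aux/IAA protein to the TIR1/AFB F-box receptors, the repressor is degraded, and the ARF is set free. Many Aux/IAA genes are themselves targets of ARFs, so the pathway feeds back on its own repressors. PIN proteins carry auxin out of cells, and their placement on one side of a cell gives auxin flow its direction. bZIP17 and bZIP28 are membrane-bound transcription factors that the proteases S1P and S2P release in the Golgi, and bZIP60 is made after IRE1 splices its mRNA. All 3 act in the unfolded protein response, which raises ER chaperones when proteins misfold.

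The libraries held 1278322 to 2810235 assigned counts (median 2011039). A read shared by several transcript models of a gene was left uncounted, which lowers genes with many models. BZIP17 had 0 to 3 counts in each bzip17/28 and bzip17/60 library, against 5 to 21 in WT mock, and BZIP28 had 0 or 1 in each bzip17/28 library, against 35 to 42 in WT mock. BZIP28 still had 23 to 30 counts in each bzip28/60 library, and BZIP60 fell by 1.91 on the log2 scale in bzip28/60 and by 2.06 in bzip17/60 under mock. A 3′ read downstream of an insertion does not show whether a protein is made. S1P and S2P had 0 or 1 counts in every library, so counts give no check of the s1p/s2p label. The chaperone gene BIP1, a sign of ER stress, rose with Tm by 3.04 in WT and by 0.89 in bzip28/60 (log2). The 3 WT Tm libraries varied among themselves by 28.2% (biological coefficient of variation), against 5.57 to 14.3% in the other 11 groups.

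Expression was measured as CPM, the counts of a gene per 1000000 counts of a library, scaled by trimmed-mean factors, which compares 1 gene between samples but not the levels of 2 genes. Log2 fold changes ± standard error come from 1 edgeR quasi-likelihood fit of all libraries, with p-values adjusted by Benjamini-Hochberg over 10480 genes, and a gene is said to be higher or lower, to rise or to fall where its adjusted p was under 0.05. Seedlings were bulk samples, so fewer cells of a type and less RNA per cell cannot be told apart. Nothing in the labels ties the 3 repeats of a group to separate cultures, and the p-values may therefore reflect a technical spread alone.

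The 4 genes that stood lower in mock-treated bzip17/28 than in WT under every alternative analysis were IAA27, PIN3, IAA9 and IAA17. Their promoters are shown because the bZIP factors missing from that mutant bind DNA at ACGTG cores. IAA19 is shown as a gene of the same family that was not called in that comparison and holds several of the motifs searched. Each is the 250 bases before the annotated gene start, written 5′ to 3′ on the gene's strand, from the RefSeq annotation and sequence of TAIR10.1. The genes lie on the plus strand except IAA27, on the minus strand. Capitals mark the auxin response element TGTCTC and its variant TGTCGG, the bZIP core ACGTG, and the ER stress element (CCAAT, then any 10 bases, then CACG), each searched on both strands.
IAA27, chr4:14325362-14325611: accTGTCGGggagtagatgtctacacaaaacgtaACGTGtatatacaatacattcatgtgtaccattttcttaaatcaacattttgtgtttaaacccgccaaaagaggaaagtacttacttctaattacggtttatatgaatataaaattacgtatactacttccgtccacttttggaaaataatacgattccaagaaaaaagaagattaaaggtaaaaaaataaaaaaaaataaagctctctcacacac
PIN3, chr1:26742690-26742939: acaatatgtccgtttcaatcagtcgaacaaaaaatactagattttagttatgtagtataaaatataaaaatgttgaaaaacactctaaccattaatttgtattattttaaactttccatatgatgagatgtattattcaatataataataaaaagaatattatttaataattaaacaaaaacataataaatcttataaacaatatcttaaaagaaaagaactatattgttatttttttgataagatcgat
IAA9, chr5:26253158-26253407: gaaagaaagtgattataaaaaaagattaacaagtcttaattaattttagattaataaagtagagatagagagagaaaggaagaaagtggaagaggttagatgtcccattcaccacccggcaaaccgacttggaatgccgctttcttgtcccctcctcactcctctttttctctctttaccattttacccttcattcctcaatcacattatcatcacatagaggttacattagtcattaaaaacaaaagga
IAA17, chr1:1135828-1136077: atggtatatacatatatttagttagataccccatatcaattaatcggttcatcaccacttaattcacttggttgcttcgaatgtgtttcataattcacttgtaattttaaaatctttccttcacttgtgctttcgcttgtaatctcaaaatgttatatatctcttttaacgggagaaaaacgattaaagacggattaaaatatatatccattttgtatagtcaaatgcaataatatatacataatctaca
IAA19, chr3:5263751-5264000: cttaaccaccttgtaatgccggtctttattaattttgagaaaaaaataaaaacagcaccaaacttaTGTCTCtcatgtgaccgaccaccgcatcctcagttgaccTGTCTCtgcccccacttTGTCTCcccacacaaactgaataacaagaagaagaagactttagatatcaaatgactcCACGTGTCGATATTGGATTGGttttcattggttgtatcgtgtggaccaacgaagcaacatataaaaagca

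In the promoters printed above, IAA27 held 1 TGTCGG and 1 ACGTG, while PIN3, IAA9 and IAA17 held none of the motifs. IAA19 held 3 copies of TGTCTC and the only ER stress element among the 37 genes, which overlaps its ACGTG core. Over the 37 promoters, TGTCTC was found in 10 (27.0%), against 10.9% of 27443 protein-coding genes. TGTCGG was found in 6 (16.2%), against 4.16% of all, and ACGTG in 9 (24.3%), against 22.9% of all. The ER stress element was found in 0.689% of all. Of the 9 genes lower in bzip17/28 under mock, 0 held TGTCTC, 2 held TGTCGG (IAA16 and IAA27), and 2 held ACGTG (IAA7 and IAA27). A match is a description of letters and not of a binding site.

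Loss of bZIP17 and bZIP28 together went with lower mRNA of a group of Aux/IAA and PIN genes without any ER stress agent. Under mock, 9 of the 16 tested genes were lower in bzip17/28 than in WT and 0 were higher, where 17.7% of all genes tested were called and 8.73% were lower. The median log2 fold change of the 16 genes was -0.57, against 0.00 over all genes tested. The plot of log2 fold changes by comparison shows this column beside the others. In bzip28/60 and bzip17/60 under mock 0 of the 16 were called, where 5.04 and 8.01% of all genes were, and in s1p/s2p 2 were called, both higher, where 7.19% of all genes were called. Counts of 0 to 2 of 16 are near those shares.

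**Figure D1:**
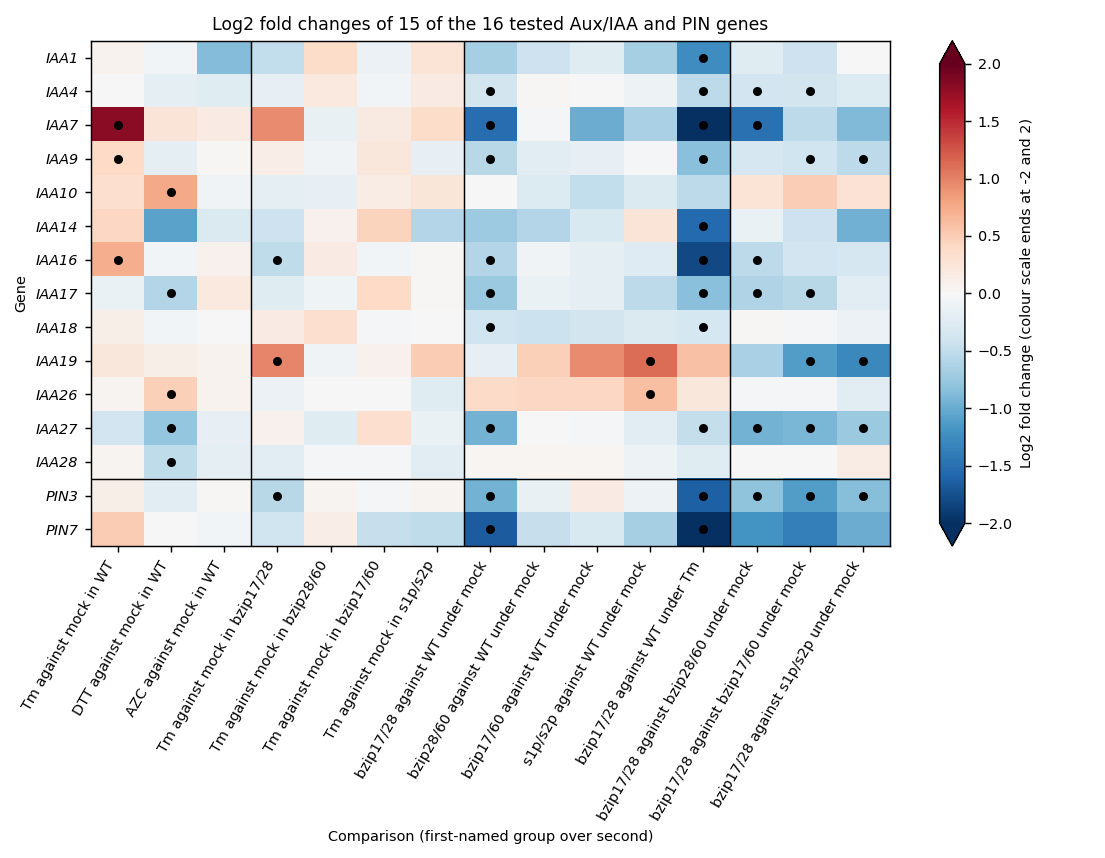
Log2 fold changes of 15 of the 16 tested Aux/IAA and PIN genes (rows) in 15 comparisons (columns, first-named group over second), with a dot where edgeR's adjusted p was under 0.05. The 9 dots for bzip17/28 against WT under mock are all on the blue, lower side, and AZC against mock in WT has none.

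PIN3 (AT1G70940) moves auxin sideways in bending roots and shoots. It had 46.1, 37.1 and 37.4 CPM in the bzip17/28 libraries, against 83.3, 70.5 and 78.6 CPM in WT, a log2 fold change of -0.95 ± 0.17 (adjusted p = 4.86e-05). All 3 mutant libraries lay well below all 3 WT libraries. Its close relative PIN7 (AT1G23080) had 3.55, 2.88 and 0.871 CPM, against 6.08, 0.691 and 15.6 CPM in WT, and these groups overlapped. The WT libraries of PIN7 alone span a wide range, and the log2 fold change of -1.66 ± 0.51 ran from -2.12 to -0.52 with 1 library left out, losing its call without WT mock 3 or bzip17/28 mock 3.

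Among the repressors, IAA27 (AT4G29080) had the lowest p. Its libraries read 42.1, 41.6 and 43.5 CPM in bzip17/28, against 88.8, 67.7 and 88.7 CPM in WT (log2 -0.95 ± 0.16, adjusted p = 3.59e-05). The mutant values are nearly equal and all below WT. IAA17 (AXR3, AT1G04250), whose stabilised form makes roots agravitropic, had 102, 103 and 103 CPM, against 161, 162 and 189.6 CPM in WT (-0.74 ± 0.18, adjusted p = 0.00349). IAA9 (AT5G65670) had 216, 213 and 219.8 CPM, against 328, 310.3 and 318 CPM in WT (-0.56 ± 0.13, adjusted p = 0.00184). In both genes no mutant library reached a WT library. IAA27 overlaps AT4G29070 on the opposite strand over 41 bases and IAA9 overlaps the long noncoding RNA gene AT5G09425 over 44, and without the strand setting of the counting, reads there cannot be told apart.

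The other 4 calls were less firm. IAA16 (AT3G04730), a repressor whose stabilised form dampens auxin and abscisic acid responses, had 82.0, 91.1 and 71.4 CPM in bzip17/28, against 120.4, 105 and 142 CPM in WT (-0.59 ± 0.16, adjusted p = 0.00568), without overlap. It lost its call without bzip17/28 mock 3 or WT mock 3, and its log2 fold change ran from -0.67 to -0.47 with 1 library left out. IAA7 (AXR2, AT3G23050) had 2.22, 1.65 and 3.05 CPM, against 7.30, 3.46 and 8.92 CPM in WT (-1.52 ± 0.53, adjusted p = 0.0365), which rests on 4 to 7 counts per mutant library. IAA18 (AT1G51950) had 62.5, 67.2 and 65.7 CPM, against 88.2, 83.6 and 86.4 CPM in WT (-0.40 ± 0.14, adjusted p = 0.0368), and IAA4 (AT5G43700) had 225, 209 and 211 CPM, against 288, 303 and 240.3 CPM in WT (-0.37 ± 0.13, adjusted p = 0.038). Both kept their groups apart but lost the call in most fits with 1 library left out, IAA18 in 6 of 6 and IAA4 and IAA7 in 5 of 6. The low value of IAA18 was not particular to bzip17/28. Its mock means were 65.1 CPM in bzip17/28, 64.0 in bzip28/60, 66.6 in bzip17/60 and 70.7 in s1p/s2p, against 86.1 in WT. Only the difference of bzip17/28 from WT was called.

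The remaining 6 repressors were not called. IAA28 (AT5G25890), which acts in lateral root founder cells, had 119, 137 and 134 CPM in bzip17/28, against 136, 134 and 108 CPM in WT (0.04 ± 0.14, adjusted p = 0.874). IAA26 (AT3G16500) was the only one of the 16 whose bzip17/28 libraries all exceeded WT, at 51.4, 56.9 and 57.5 CPM against 43.2, 42.8 and 40.7 CPM in WT (adjusted p = 0.0795). The share of all genes for this is not given here. Its libraries in each other mutant under mock also all exceeded WT. IAA1 (AT4G14560) had 13.7, 8.65 and 10.4 CPM, against 14.6, 16.6 and 20.6 CPM in WT (adjusted p = 0.134). With IAA1, and without PIN7, 9 of the 16 genes had all 3 bzip17/28 libraries below all 3 WT libraries, which held for 17.4% of all genes tested. The other 3 were IAA10, IAA14 and IAA19, with log2 fold changes of 0.00, -0.72 and -0.17.

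**Figure D2:**
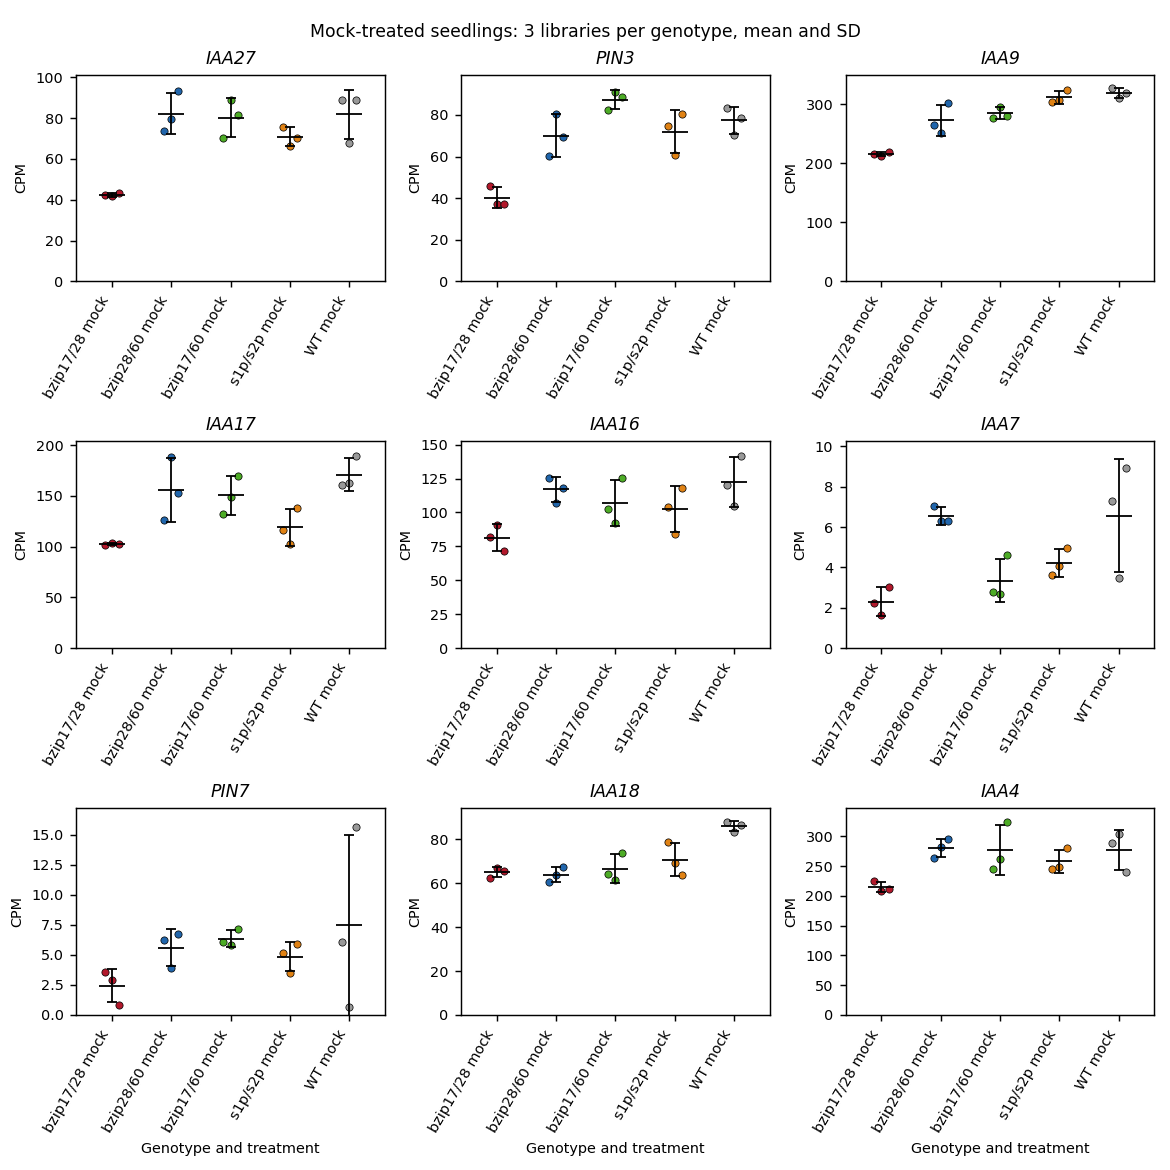
CPM of the 9 genes lower in bzip17/28 than in WT under mock, in mock-treated seedlings of the 5 genotypes; points are the 3 libraries of a genotype, the long bar is their mean and the whiskers 1 SD (cut at 0 for PIN7 in WT). IAA27, PIN3, IAA9 and IAA4 in bzip17/28 lie below every library of the other 4 genotypes.

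The mRNA of root and green tissue marker genes was summed beside these results, which does not measure the share of a tissue. The summed CPM of 10 root markers ran from 171 to 187 in bzip17/28 mock, against 133 to 152 in WT mock, and 2 of the 9 markers tested, CASP2 among them, were higher and 0 were lower. The summed CPM of 5 green tissue markers ran from 25448 to 26976 in bzip17/28 mock, against 33622 to 36899 in WT mock, with LHCB1.3 lower and RBCS1A higher among the 5. No marker of either list was at 0 in these groups, and the part of these markers in the Aux/IAA and PIN differences was not tested.

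The same mutant was also set against the other mutants under mock, in comparisons added after the data were seen. These share the bzip17/28 mock libraries with each other and with the WT comparison. Lower genes numbered 7 of 16 against bzip28/60, where 12.6% of all genes were called and 4.91% were lower. They numbered 6 against bzip17/60, where 15.1% were called and 7.11% were lower, and 5 against s1p/s2p, where 9.97% were called and 4.12% were lower. In each of these comparisons 0 of the 16 were higher. Of the 9 root markers tested, 7 were higher in bzip17/28 than in s1p/s2p, and their part was not tested.

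IAA27 and PIN3 were lower in all 3 of these comparisons and under every alternative. Mock-treated bzip28/60, bzip17/60 and s1p/s2p libraries held 73.5, 79.5 and 93.4, then 70.3, 88.8 and 81.7, then 75.7, 66.4 and 70.2 CPM of IAA27, all above the bzip17/28 values given above. The log2 fold changes of bzip17/28 were -0.95 ± 0.16, -0.92 ± 0.16 and -0.74 ± 0.16 in that order. For PIN3 the libraries held 60.2, 80.5 and 69.5, then 82.5, 91.0 and 88.8, then 74.7, 60.6 and 80.7 CPM in the same order of genotypes, with log2 fold changes of -0.80 ± 0.16, -1.12 ± 0.16 and -0.85 ± 0.17. The group ranges of bzip17/28 and of the other mutants did not overlap for either gene.

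Other repressors were called against some of the mutants only, and a missing call does not show equal levels. IAA9 was lower in bzip17/28 than in s1p/s2p (304, 307 and 324 CPM in s1p/s2p; log2 -0.53 ± 0.13) and than in bzip17/60 (277, 296 and 281 CPM in bzip17/60; log2 -0.40 ± 0.13). Its bzip17/28 libraries also lay below those of bzip28/60 (264, 252 and 302 CPM in bzip28/60), without a call. IAA17 was lower than in bzip28/60 (126, 188 and 153 CPM in bzip28/60; log2 -0.60 ± 0.18) and bzip17/60 (132, 149 and 170.0 CPM in bzip17/60; log2 -0.55 ± 0.18). Of these calls that of IAA9 against s1p/s2p held with each library left out, and the other 3 were lost with 4 to 6 of the 6. The s1p/s2p libraries of IAA17, at 116, 103 and 138 CPM, reached down to the bzip17/28 values.

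Against bzip28/60 the calls further took in IAA16 (126, 107 and 118 CPM in bzip28/60; log2 -0.52 ± 0.15) and IAA7 (7.04, 6.31 and 6.28 CPM; -1.49 ± 0.50). IAA4 was lower than in bzip28/60 (264, 283 and 295 CPM; -0.38 ± 0.13) and bzip17/60 (245, 262 and 325 CPM; -0.37 ± 0.13). The bzip17/28 libraries of IAA4 also lay below those of s1p/s2p (245, 249 and 281 CPM in s1p/s2p), without a call. The calls of IAA16, IAA7 and IAA4 rest on small differences or few counts, and each was lost with at least 3 of the 6 libraries left out in turn.

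IAA19 (MSG2, AT3G15540), a repressor of bending growth in the hypocotyl, followed another order of genotypes. Its libraries read 10.9, 15.7 and 13.6 CPM in s1p/s2p under mock, against 4.87, 6.22 and 7.25 CPM in WT (1.11 ± 0.35, adjusted p = 0.0411). In bzip17/28 they read 3.99, 7.01 and 5.22 CPM, against 12.2, 10.3 and 13.3 CPM in bzip17/60 (-1.12 ± 0.34) and against the s1p/s2p values just given (-1.29 ± 0.33). The s1p/s2p and bzip17/60 libraries were all above WT and bzip17/28, and so were those of bzip28/60, at 8.22, 9.70 and 7.96 CPM. IAA19 was not called between WT and bzip28/60 or bzip17/60. With 1 library left out, the rise in s1p/s2p lost its call in 5 of 6 fits, the difference from bzip17/60 in 4 of 6 and that from s1p/s2p in 1 of 6.

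In s1p/s2p under mock, 2 of the 16 genes were higher and 0 lower, where 7.19% of all genes were called and 2.82% were higher. Besides IAA19 this was IAA26 (PAP1), a repressor found through its binding to phytochrome, with 72.6, 61.2 and 58.5 CPM in s1p/s2p, against 43.2, 42.8 and 40.7 CPM in WT (0.60 ± 0.16, adjusted p = 0.0118). All mutant libraries lay above WT, also for IAA26 in bzip28/60 (52.4, 58.2 and 58.6 CPM) and bzip17/60 (56.5, 54.9 and 57.7 CPM), where adjusted p was 0.112 and 0.095. The call of IAA26 in s1p/s2p was lost without s1p/s2p mock 1 or WT mock 3. The summed root markers ran from 52.4 to 76.2 CPM in s1p/s2p mock, against 133 to 152 in WT mock, with 2 of 9 markers lower, and their part was not tested. In bzip28/60 and bzip17/60 0 of the 16 genes were called, where 5.04 and 8.01% of all genes were called at adjusted p under 0.05. At an unadjusted p under 0.05, bzip28/60 had 3 of the 16 genes and bzip17/60 had 3. The share of all genes at that unadjusted threshold is not given here, so these counts have nothing to be set against. The lowest adjusted p was that of IAA18 in both, 0.0596 for bzip28/60 and 0.0923 for bzip17/60, with all libraries of these mutants below WT. DESeq2 called 1 gene lower in bzip28/60 and 0 in bzip17/60.

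Tunicamycin raised 3 repressors in WT, IAA16, IAA7 and IAA9, and lowered 0 of the 16 genes. Of all genes tested 16.8% were called and 8.65% were higher, and 3 calls among 16 genes are near the called share. The median of the 16 genes was 0.11, against 0.02 over all genes. IAA16 had 162, 229.7 and 213 CPM with Tm, against 120.4, 105 and 142 CPM under mock (0.72 ± 0.15, adjusted p = 0.000739). IAA7 had 13.1, 39.6 and 18.7 CPM with Tm, against 7.30, 3.46 and 8.92 CPM under mock (1.80 ± 0.38, adjusted p = 0.000796). All Tm libraries lay above all mock libraries in both genes, and both calls held with each library left out. IAA16 lost its call when only the WT Tm and mock libraries were fitted, whose spread is wide (adjusted p = 0.106).

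IAA7 has several transcript models, and most of the added counts came from 1 of them. The model AT3G23050.3 had 11, 46 and 22 counts with Tm, against 6, 3 and 9 under mock. The model AT3G23050.2 had 6, 4 and 12 counts with Tm, against 6, 2 and 7 under mock, and AT3G23050.1 had 0 in each. WT Tm 2 carried the most counts of AT3G23050.3, and without that library the log2 fold change of IAA7 was 1.25. Reads shared by the models were not counted, so a rise of the gene and a change in the use of its models cannot be told apart. Summed over the libraries of a group, AT3G23050.3 had 24 counts with Tm in bzip17/28, against 7 under mock. It had 20 against 18 in bzip28/60, 15 against 12 in bzip17/60 and 15 against 13 in s1p/s2p.

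IAA9 had 336, 449 and 474 CPM with Tm, against 328, 310.3 and 318 CPM under mock (0.40 ± 0.13, adjusted p = 0.029). The groups stood apart, but the lowest Tm library was close to mock and the call was lost in 5 of 6 fits with 1 library left out. PIN3 and PIN7 were not called with Tm in WT, at 90.9, 60.2 and 100.3 CPM for PIN3 and 10.02, 15.8 and 8.26 for PIN7. IAA27 was not called either, at 75.5, 67.3 and 47.9 CPM with Tm, against 88.8, 67.7 and 88.7 CPM under mock (adjusted p = 0.108).

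IAA16 was not called higher with Tm in any of the 4 mutants. In bzip17/28 it had 68.5, 52.3 and 52.1 CPM with Tm, against 82.0, 91.1 and 71.4 CPM under mock, and so fell by 0.51 (adjusted p = 0.0283). The difference of that response from the WT response was -1.22 ± 0.22 (adjusted p = 0.000297), and this call held under every alternative and with each library left out. Of all genes, 3.96% had a called difference of responses in this pair, and of the 16 genes IAA16 alone did.

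In bzip17/60 IAA16 had 93.2, 108 and 107 CPM with Tm, against 102, 92.4 and 126 CPM under mock, with overlap. Its response differed from that of WT by -0.77 ± 0.22 (adjusted p = 0.0336; 3.72% of all genes called), a call lost in 8 of 12 fits with 1 library left out. In bzip28/60 it had 124, 124 and 144 CPM with Tm, against 126, 107 and 118 CPM under mock, and in s1p/s2p 100.3, 118 and 94.5 CPM with Tm, against 104, 84.5 and 118 CPM under mock. The differences from the WT response were -0.56 ± 0.21 (adjusted p = 0.123) and -0.69 ± 0.22 (adjusted p = 0.0842), neither called. All 4 of these differences use the same 6 WT libraries.

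IAA7 was not called with Tm in bzip28/60, at 7.39, 5.15 and 5.09 CPM with Tm, against 7.04, 6.31 and 6.28 CPM under mock. The difference from the WT response was -1.94 ± 0.57 (adjusted p = 0.0394; 4.06% of all genes called), a call lost in 9 of 12 fits with 1 library left out. In bzip17/28, bzip17/60 and s1p/s2p the same difference was -0.86 ± 0.69, -1.61 ± 0.68 and -1.44 ± 0.63, not called. In s1p/s2p 0 of the 16 differences were called, where 1.95% of all genes were, and DESeq2 called 1. At an unadjusted p under 0.05 there were 3, with no share of all genes given at that threshold.

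**Figure D3:**
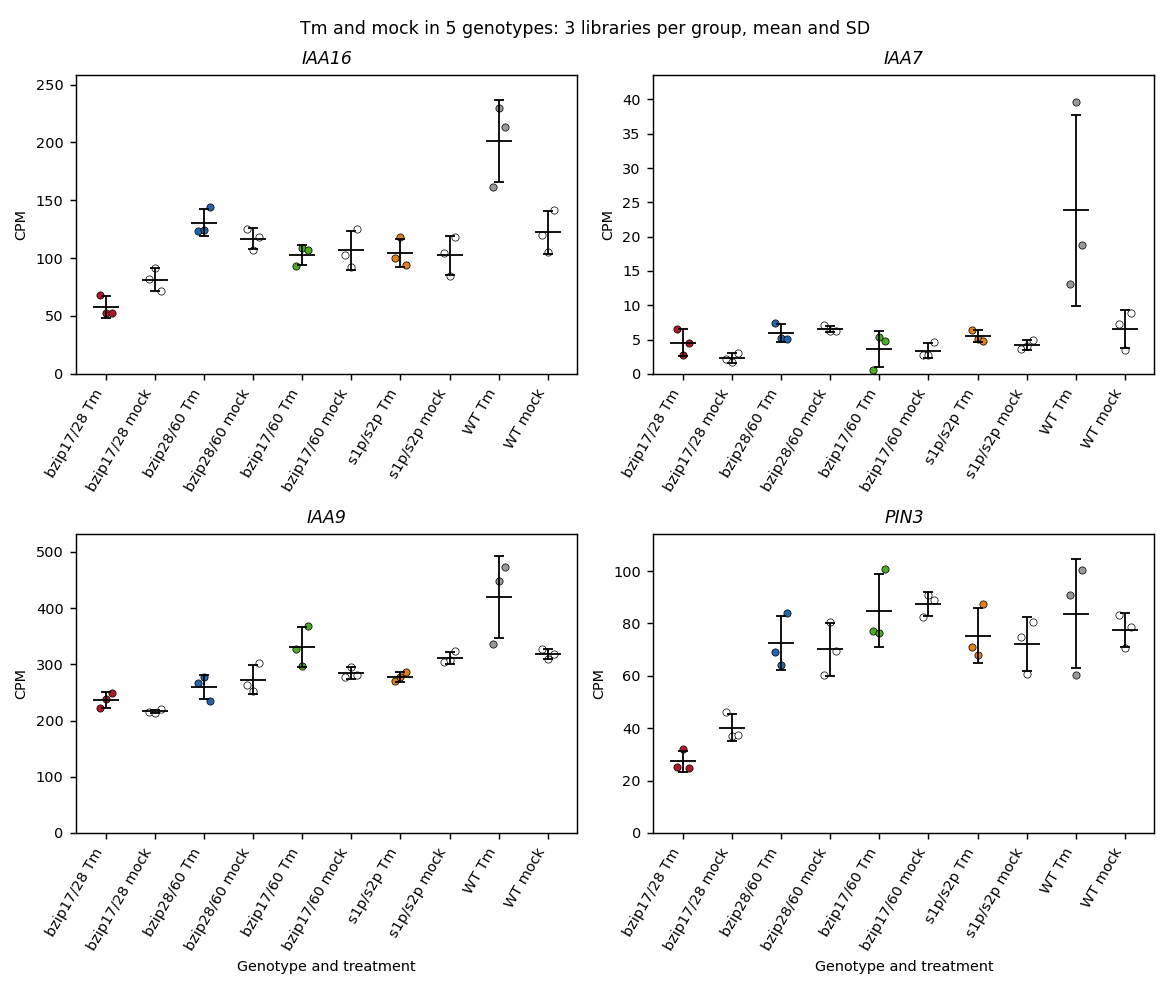
CPM of IAA16, IAA7, IAA9 and PIN3 with Tm (filled points) and under mock (open points) in the 5 genotypes; points are 3 libraries, the long bar is their mean and the whiskers 1 SD. IAA16 with Tm spans 52.1 to 68.5 CPM in bzip17/28, against 161.8 to 229.7 CPM in WT.

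Within the mutants, Tm gave calls for these genes only in bzip17/28, where 3 of 16 were called and 11.5% of all genes were. All genes were also called less often in bzip28/60, bzip17/60 and s1p/s2p, at 2.39, 3.07 and 3.55%. The contrast between the mutants is therefore not particular to these genes, and 3 of 16 is not far from the share in bzip17/28. PIN3 had 25.2, 32.0 and 24.7 CPM with Tm, against 46.1, 37.1 and 37.4 CPM under mock, and fell by 0.55 (adjusted p = 0.032) without overlap. Its response did not pass the test of a difference from WT (-0.68 ± 0.24, adjusted p = 0.102). IAA19 had 7.92, 9.54 and 14.4 CPM with Tm, against 3.99, 7.01 and 5.22 CPM under mock (0.98 ± 0.33, adjusted p = 0.0427). Each of these 3 calls, IAA16 included, was lost in 3 or 4 of the 6 fits with 1 library left out. The summed root markers ran from 99.5 to 143 CPM in bzip17/28 with Tm, against 171 to 187 under mock, with 4 of 9 lower, and their part was not tested.

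In bzip28/60, bzip17/60 and s1p/s2p 0 of the 16 genes were called with Tm, where 2.39, 3.07 and 3.55% of all genes were. At an unadjusted p under 0.05 there were 1, 2 and 1 genes in that order, with no share of all genes given at that threshold. DESeq2 also called 0 in each. The adjusted p was 0.269 for IAA18 in bzip28/60 and 0.313 for IAA17 in bzip17/60, the lowest of the 16 in those comparisons.

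Seedlings of bzip17/28 and WT were also compared under Tm, in a comparison added after the data were seen. There 11 of 16 genes were lower and 0 higher, where 35.1% of all genes were called and 18.4% were lower. The median of the 16 genes was -0.68, against -0.02 over all genes. IAA16 differed by -1.81 ± 0.16, PIN3 by -1.63 ± 0.17 and IAA9 by -0.83 ± 0.13, from the libraries given above for PIN3 and IAA16 and from 222, 238 and 249 CPM in bzip17/28 for IAA9. PIN7 had 2.80, 1.14 and 1.71 CPM, against 10.02, 15.8 and 8.26 CPM in WT (-2.56 ± 0.51), and IAA7 had 6.52, 2.67 and 4.46 CPM, against 13.1, 39.6 and 18.7 CPM in WT (-2.38 ± 0.38). For these 5 genes no bzip17/28 library reached a WT library, and all 5 calls held with each library left out. The summed green tissue markers ran from 22906 to 31162 CPM in bzip17/28 with Tm, against 30900 to 37210 CPM in WT with Tm, with 2 of 5 lower and 1 higher, and 1 of 9 root markers was lower and 0 were higher. No green tissue marker was at 0, and the part of these markers was not tested.

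IAA14 (SOLITARY-ROOT, AT4G14550), whose stabilised form blocks lateral root initiation, was also lower, at 2.80, 3.05 and 3.09 CPM in bzip17/28, against 6.16, 9.51 and 10.5 CPM in WT (-1.55 ± 0.42). Its neighbour IAA1, 10732 bases away on chromosome 4, had 7.45, 9.16 and 6.52 CPM, against 12.3, 11.9 and 28.1 CPM in WT (-1.24 ± 0.32), and lost its call without WT Tm 3. IAA4 had 209.6, 165 and 201 CPM, against 297, 255 and 278 CPM in WT (-0.53 ± 0.13). All 3 genes kept their groups apart. The other 3 called genes overlapped between the groups. IAA17 had 87.1, 90.4 and 84.0 CPM, against 163, 82.4 and 214 CPM in WT (-0.83 ± 0.18), IAA27 had 39.1, 38.1 and 56.6 CPM, against 47.9 to 75.5 CPM in WT (-0.48 ± 0.17), and IAA18 had 82.9, 62.9 and 74.1 CPM, against 85.5, 120.4 and 75.5 CPM in WT (-0.35 ± 0.14). The call of IAA27 was lost with 4 of the 6 libraries left out in turn and under 4 of 7 other settings. That of IAA18 was lost with 3 of 6 and under 6 of 7 other settings, and its log2 fold change was -0.11 without WT Tm 2.

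With dithiothreitol in WT, 5 of the 16 genes were called, IAA27, IAA17 and IAA28 lower and IAA26 and IAA10 higher, where 15.9% of all genes were called, 6.97% lower and 8.93% higher. IAA27 had 45.0, 55.6 and 43.7 CPM with DTT, against 88.8, 67.7 and 88.7 CPM under mock (-0.77 ± 0.17, adjusted p = 0.000754), and this call held under every alternative and with each library left out. IAA17 had 103, 130.5 and 109 CPM, against 161, 162 and 189.6 CPM under mock (-0.58 ± 0.19, adjusted p = 0.0248). IAA28 had 80.6, 89.8 and 96.0 CPM, against 136, 134 and 108 CPM under mock (-0.51 ± 0.15, adjusted p = 0.0122). All DTT libraries lay below all mock libraries for these 3, and the calls of IAA17 and IAA28 were each lost in 3 of 6 fits with 1 library left out. Of the 5 genes, IAA28 alone was also called between Tm and DTT.

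The 2 genes higher with DTT were IAA26, at 64.0, 56.2 and 54.8 CPM, against 43.2, 42.8 and 40.7 CPM under mock (0.47 ± 0.16, adjusted p = 0.0395), and IAA10 (AT1G04100), at 19.6, 20.7 and 18.3 CPM, against 12.8, 11.7 and 10.04 CPM under mock (0.76 ± 0.27, adjusted p = 0.0488). The groups stood apart, but both calls were lost in 6 of 6 fits with 1 library left out. IAA10 overlaps the gene AT1G04105 on the opposite strand over 619 bases, and since the strand setting of the counting is not given in the sources used here, reads of the 2 genes cannot be told apart. Root markers moved with DTT, since their summed CPM ran from 11.1 to 18.1, against 133 to 152 under mock, all 9 tested were lower, and CASP2 was at 0. The summed green tissue markers ran from 25715 to 34717 CPM with DTT, against 33622 to 36899 under mock, with 0 of 5 called. The part of these markers in the Aux/IAA values was not tested.

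With AZC 0 of the 16 genes were called, where 5.44% of all genes were, and DESeq2 also called 0. At an unadjusted p under 0.05 there was 1, with no share of all genes given at that threshold. The lowest adjusted p, 0.151, belonged to IAA1, an early auxin-induced repressor, with 13.98, 8.398 and 5.37 CPM with AZC, against 14.6, 16.6 and 20.6 CPM under mock. AZC raised BIP1 by 2.11 (log2). The summed root markers ran from 58.4 to 59.1 CPM with AZC, against 133 to 152 under mock, with 7 of 9 lower.

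**Figure D4:**
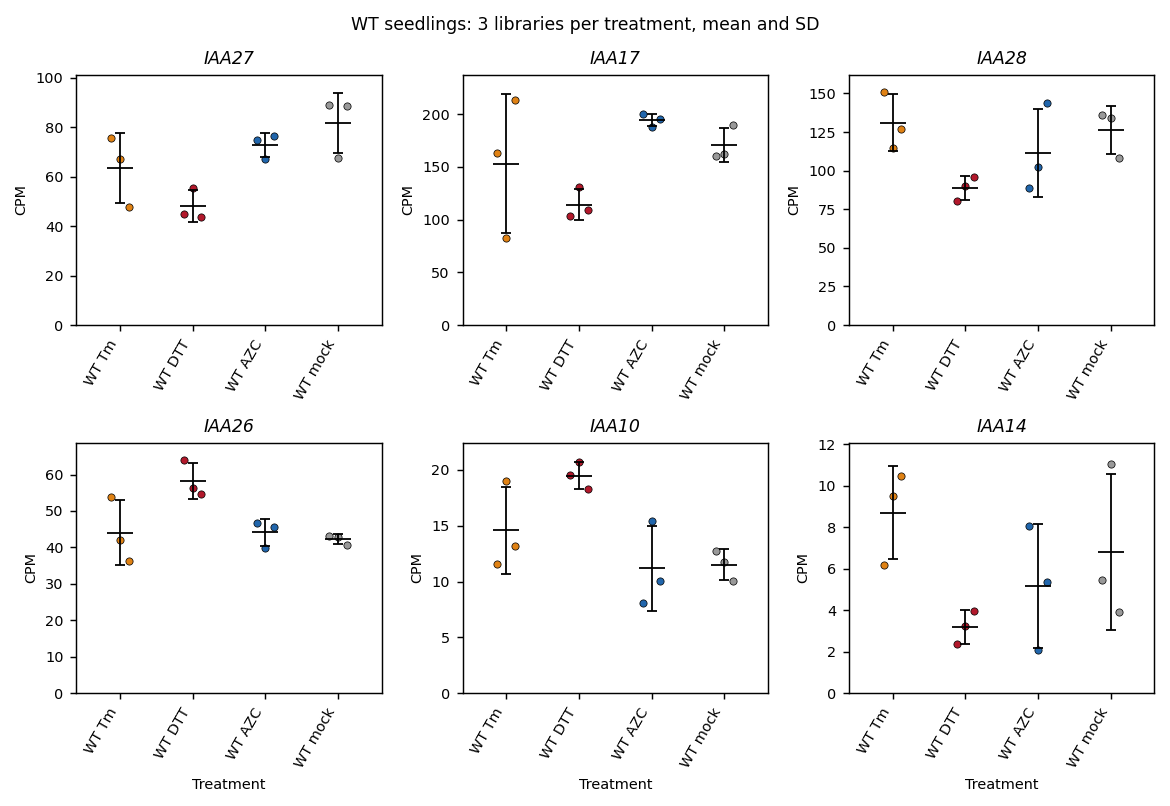
CPM of 6 repressor genes in WT seedlings given Tm, DTT, AZC or mock; points are the 3 libraries of a treatment, the long bar is their mean and the whiskers 1 SD. IAA27, IAA17 and IAA28 with DTT lie below all mock libraries, and IAA26 and IAA10 with DTT lie above them.

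The agents were also compared with each other, and the 3 comparisons share libraries. Of the 16 genes, 5 were higher with Tm than with DTT and 0 lower, where 23.9% of all genes were called and 12% were higher. These were IAA16 (0.77 ± 0.15; DTT libraries 129, 96.2 and 129 CPM), IAA9 (0.59 ± 0.13; DTT libraries 248, 355 and 231 CPM) and IAA7 (1.54 ± 0.38; DTT libraries 10.7, 2.58 and 11.1 CPM). IAA28 had 151, 115 and 127 CPM with Tm, against 80.6, 89.8 and 96.0 CPM with DTT (0.56 ± 0.15), and IAA14 had 6.16, 9.51 and 10.5 CPM with Tm, against 2.37, 3.23 and 3.97 CPM with DTT (1.48 ± 0.47). Of the 5 genes IAA9 alone overlapped, and its call held with each library left out, while that of IAA14 was lost with 3 of 6 and that of IAA7 without WT Tm 2.

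Against AZC, 4 genes were higher with Tm and 0 lower, where 18.3% of all genes were called and 9.3% were higher. The AZC libraries held 9.14, 5.60 and 7.38 CPM of IAA7 (1.64 ± 0.38), 117, 146 and 127 CPM of IAA16 (0.64 ± 0.15) and 345, 325 and 297 CPM of IAA9 (0.38 ± 0.13). IAA7 lost its call without WT Tm 2, with a log2 fold change of 1.09 (adjusted p = 0.0682). IAA9 overlapped between the groups and lost its call with 5 of 6 libraries left out in turn. IAA1, at 12.3, 11.9 and 28.1 CPM with Tm (0.93 ± 0.34), overlapped and without WT Tm 3 had a log2 fold change of 0.34. Between DTT and AZC 3 of the 16 were called, where 17.3% of all genes were. IAA17 was lower with DTT (-0.77 ± 0.18; AZC libraries 199.99, 188 and 195 CPM), as was IAA27 (-0.60 ± 0.17; AZC libraries 74.7, 67.2 and 76.5 CPM), and IAA10 was higher (0.83 ± 0.28; AZC libraries 8.06, 15.4 and 10.1 CPM). The call of IAA17 held with each library left out, and that of IAA10 was lost with 5 of 6. The summed root markers differed between the agents, at 119 to 143 CPM with Tm beside the DTT and AZC values given above, and their part in these comparisons was not tested.

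Over all 12 groups, the tested genes had different extremes. IAA9, IAA7, IAA27 and IAA19 had their lowest group mean in bzip17/28 mock, at 216, 2.30, 42.4 and 5.41 CPM in that order. IAA1, IAA4, IAA14, IAA16, IAA17, PIN3 and PIN7 had theirs in bzip17/28 with Tm. The highest group mean was in WT Tm for IAA1, IAA7, IAA9, IAA14, IAA16, IAA18, IAA28 and PIN7, the group with the widest spread between libraries. IAA28 was lowest in WT DTT, IAA10 in bzip17/60 mock, IAA18 in bzip28/60 mock, and IAA26 in WT mock.

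The other steps of the auxin pathway were counted in bzip17/28 against WT under mock, from lists chosen with earlier results of these data known. Of 6 TIR1/AFB receptors AFB3 was higher (0.66 ± 0.21) and TIR1 lower (-0.53 ± 0.17), and TIR1 was also lower in bzip28/60 (-0.68 ± 0.17) and s1p/s2p (-0.68 ± 0.17). Of the ARF transcription factors 3 of 15 were tested and 0 called. Of 6 influx and ABCB carriers tested, LAX3 (-1.06 ± 0.26), an auxin importer of lateral root emergence, and LAX2 (-1.33 ± 0.47) were lower and 0 higher. Of 9 SAUR and other auxin-response genes tested, SAUR62 (-1.34 ± 0.32), SAUR21 (-1.28 ± 0.33), SAUR78 (-0.46 ± 0.14) and SAUR20 (-1.23 ± 0.39), from a family of growth genes that auxin induces, were lower and 0 higher, and SAUR20 and SAUR21 are close copies whose counts are uncertain. Of 5 conjugation and oxidation genes, IAR3, which releases auxin from its amino acid conjugates, was higher (1.37 ± 0.28). In auxin synthesis (4 tested), PILS carriers (2) and PIN polarity regulators (2), 0 were called. Of all genes tested 17.7% were called and 8.73% were lower in this comparison, and with 2 to 9 genes tested in a list, counts of 0 to 2 are near those shares.

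With the agents in WT, the 8 lists of auxin genes, with 2 to 9 genes tested in each, held 3 calls for Tm, 3 for DTT and 0 for AZC. Of all genes, 16.8, 15.9 and 5.44% were called in that order. Tm lowered AFB5 (-0.61 ± 0.17), the conjugating enzyme gene GH3.5 (33.7 ± 1.12 CPM with Tm, against 68 ± 35.1 CPM under mock, SD, n = 3 each; adjusted p = 0.0341) and HAT2 (-0.70 ± 0.20), a homeobox gene that auxin induces. DTT lowered LAX3 (-1.42 ± 0.29) and GH3.6 (-0.85 ± 0.29) and raised IAR3 (1.23 ± 0.30). In bzip17/28 with Tm, against mock, ARF19 (-1.04 ± 0.31), ABCB19 (-0.70 ± 0.19), which exports auxin, and SAUR78 (-0.49 ± 0.14) were lower.

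The 21 genes without a test had 0 to 77 counts summed over all 36 libraries, and 15 of them have several transcript models, whose shared reads were left uncounted. IAA3 (SHY2), IAA8 and PIN5 had 0 counts. IAA12 (BODENLOS), the repressor of embryonic root formation, had 77, IAA6 and IAA33 had 39 each, IAA13 had 36, PIN4 had 30 and IAA31 had 28. IAA5 and IAA32 had 17 each, IAA2, IAA20 and IAA29 had 5 each, and IAA11, IAA34, PIN2 and PIN6 had 4 each. IAA15, IAA30 and PIN8 had 2 each. PIN2, the carrier of root gravitropism, is among them, so the low counts do not show that a gene was silent in these seedlings. Of the 16 tested genes, IAA7, IAA9, IAA14, IAA26 and PIN7 also have several models, and 57.8% of the counts of IAA7 came from its leading one.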

How the data were processed

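Whole-number counts per transcript model (58699 models, 37336 loci) were deposited for 36 libraries of 12 groups, placed in groups by their labels. The submitters' processing notes name HTSeq 0.6.0, TopHat2 2.1.1, Trim Galore 0.2.8 and SAMtools as the authors' tools, and the genome build, the annotation and the strand setting are not given in the sources used here. Reads shared by models were among those set aside by the authors' counting as ambiguous. Ambiguous reads were 39.9 to 42.8% of assigned and ambiguous reads together. Reads on no feature were 2.69 to 6.32% of assigned, ambiguous and no-feature reads together. Both kinds stayed out of library sizes and tests. Libraries held 1278322 to 2810235 assigned counts, which sets how small a change of a gene with few counts could be called.

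Counts were summed per locus and kept by edgeR's filterByExpr (minimum count 10), leaving 10480 genes. A single edgeR 4.0.16 model of all groups, run under R 4.3.3, used TMM factors and the robust quasi-likelihood test with 24 residual degrees of freedom and Benjamini-Hochberg adjustment over all genes tested and a threshold of 0.05. CPM values were computed with TMM factors. The fit was checked on simulated counts with 200 changed genes. The genes followed, the lists beside them and the tests were chosen with earlier results of these data known. One tested gene of the set is not reported here, though counts and medians over the set include it, and each other gene called in a comparison is given with its libraries, and the lists are given by their counts and up to 3 called genes of lowest p for most comparisons. Promoters were read from RefSeq TAIR10.1 by locus tag, and all 37 genes matched. Coordinates of the count files were not used. Other settings tried were library size alone, relative log expression factors, keeping genes of low counts, the repeat number as a block, a spread per group (limma 3.58.1), DESeq2 1.42.0, only the groups of a comparison, and each library left out in turn. The comparisons of bzip17/28 with the other mutants, and with WT under Tm, were added after seeing the data. Repeat libraries were not identical, and no 2 agreed within sampling noise.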

Additional observations from a re-analysis of the deposited data

Results flagged for a closer look

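A difference between the Tm responses of 2 genotypes was called for 2 genes of the set and for 6 others of the lists counted beside it. Of all genes tested, 3.96, 4.06, 3.72 and 1.95% had a called difference in bzip17/28, bzip28/60, bzip17/60 and s1p/s2p. Of the 16 tested genes of the set 1, 1, 1 and 0 were called in that order, which is near those shares. IAA16 differed from its WT response by -1.22 in bzip17/28 and by -0.77 in bzip17/60, and IAA7 by -1.94 in bzip28/60. In bzip17/28 the response of ARF19 differed by -1.68 and that of the exporter ABCB19 by -0.92. In bzip28/60 the response of PILS6 differed by -1.94. In bzip17/60 the response of GH3.6, which conjugates auxin, differed by 1.40. Among the root markers the response of CASP1 differed by -1.38 in bzip28/60 and by -2.12 in s1p/s2p, and that of PHT1;1 by -1.27 in bzip17/60. All values are log2 fold changes of the mutant response over that of WT, edgeR's test of the difference itself passed for each, and all use the same 6 WT libraries, of which the 3 Tm libraries had the widest spread.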

How the results depend on the processing

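Of 66 calls of single genes, 22 held under every alternative and with every library left out, 44 were lost at least once and 0 changed sign. Calls lost numbered 0 with relative log expression factors, 13 with library size alone, 14 with no filter, 13 with a spread per group, 7 with DESeq2, 16 with only the groups of a comparison and 2 with the replicate block (IAA10 with DTT, IAA18 in bzip17/28 against WT under Tm). Repeat numbers do not pair the libraries: same-numbered deviations correlated by -0.15 to 0.2, and 6 of 36 libraries correlated best with their own number. In 3 of 22 comparisons the all-gene median shifted by over 0.1 with library size alone, upward by 0.109 in mock-treated bzip17/28 against WT, where IAA4, IAA7 and IAA18 lost their calls. With relative log expression factors this happened in 0.

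Counts of called genes moved as follows, and the cause was not tested. With only the groups of a comparison they were 1 for Tm in WT, 3 for DTT in WT, 1 for Tm against DTT, 1 for Tm against AZC, 0 for the response differences of bzip28/60 and of bzip17/60, and 7 for bzip17/28 against WT under Tm. All genes called were 262 of 8438, 1348 of 8446, 811 of 8283 and 472 of 8355 for the agents in that order. For the others they were 118 of 9658, 13 of 9446 and 1927 of 9100. The main fit called 1759, 1666, 2500, 1919, 426, 390 and 3683 of 10480 genes. Calls over all genes thus also became fewer. With a spread per group they were 3 for Tm against DTT, 2 for Tm against AZC, 1 for bzip28/60 against WT under mock, and 0 for the response differences of bzip28/60 and bzip17/60. Over all 10480 genes the calls were 1096, 677, 744, 204 and 110 in that order. DESeq2 gave 1 for bzip28/60 against WT under mock and 0, 2 and 1 for the response differences of bzip28/60, bzip17/60 and s1p/s2p. Its calls over all 10480 genes were 591, 579, 499 and 316 in that order. No filter gave 3 for DTT in WT and 2 for the response difference of bzip17/60, where 1626 and 492 of 23042 genes were called. Library size alone gave 1 for Tm in bzip17/28 and 3 for bzip17/28 against bzip17/60 under mock. Of 10480 genes 1163 and 1598 were called there.

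With 1 library left out, counts ran from 4 (without bzip17/28 mock 3) to 7 for bzip17/28 against WT under mock, 9 to 10 for the same pair under Tm, 2 to 4 against bzip28/60, 2 to 4 against bzip17/60 and 3 to 5 against s1p/s2p. They ran from 2 to 4 for Tm in WT, 1 (without WT DTT 1) to 4 for DTT in WT, 4 to 6 for Tm against DTT, 2 to 4 for Tm against AZC, 1 to 4 for DTT against AZC, 0 to 2 for Tm in bzip17/28 and 0 to 1 for s1p/s2p under mock. For response differences they ran from 1 to 2 in bzip17/28, 0 to 3 in bzip28/60, 0 to 2 in bzip17/60 and 0 to 2 in s1p/s2p. Calls over all genes in these fits are not given here. A loss particular to these genes therefore cannot be told from a loss over all genes. Depth limits PIN7, IAA7 and IAA14, with few counts per library, and leaves 21 genes of the set without a test.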
